A study of Homo sapiens with 12 samples.

Results

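Expression of *NEK7* and of genes of the inflammasome, gasdermin and necroptosis pathways was examined in U251 cells, an established human glioblastoma cell line, after transfection with siRNAs against *PD-L1* and stimulation with IFNγ. The group held 10 of the 45416 genes in the deposited table: *NEK7*, *NLRP3*, *PYCARD*, *AIM2*, *CASP1*, *CASP4*, *GSDMD*, *GSDME*, *RIPK3* and *MLKL*. They were found by gene symbol, and *NEK7* was picked because it was higher with both siRNAs. For that reason its values with siRNA are a description and were not tested. Cells were transfected with a control siRNA (siNC) or with siPDL1-1 or siPDL1-2, which are different siRNAs against *PD-L1*, and after 48 h were left unstimulated or received IFNγ at 100 U/ml for 24 h. Each of the 6 groups had 2 libraries, and the 12 libraries all came from wild-type cells of the same line. Transfection with an siRNA was shared by all groups, siNC included. The study's methods give 2 independent experiments, but the labels do not tie a library to an experiment, so p-values measure the spread between these libraries.

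Inflammasomes are cytosolic complexes in which a sensor such as NLRP3 or AIM2 recruits the adaptor ASC, encoded by *PYCARD*, and activates caspase-1. NEK7 is a mitotic kinase that also binds NLRP3 and is required for assembly of the NLRP3 inflammasome. Caspase-1 and caspase-4 cleave gasdermin D, whose fragment forms pores in the membrane during pyroptosis, and caspase-1 also matures IL-1β and IL-18. In necroptosis, the kinase RIPK3 phosphorylates MLKL, which then ruptures the membrane. These systems are best known from myeloid cells, and many tumour cells lack some of their components.

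The libraries held 17101069 to 55657393 reads on genes, and a single read was worth 0.0187 to 0.0586 normalized CPM (counts scaled by the authors to library size). *CD274*, which encodes PD-L1, averaged 56.8% of siNC with siPDL1-1 and 73.8% with siPDL1-2 in unstimulated cells, and 86.7% and 49.3% after IFNγ. The 10 glial and glioma markers summed to 4001 to 4878 CPM per library, and *VIM* alone had 3139 to 3968 CPM. Of the 10, 8 averaged above 1 CPM in each group, with *GFAP* at 1.92 to 7.25 CPM. *AQP4* reached at most 0.364 CPM, and *OLIG2* had 54 reads in all, in 10 of 12 libraries. The 10 myeloid markers summed to 0.894 to 2.03 CPM per library, and 3 to 5 of them had no reads in a given group. *AIF1*, *TYROBP* and *FCGR3A* had 1 read each over all libraries. The highest were *CSF1R*, with 305 reads and up to 1.13 CPM, and *CD14*, with 142 reads and up to 0.667 CPM. In bulk RNA, a larger share of cells expressing a gene and more RNA per cell cannot be told apart.

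Of the 10 genes, 8 had enough reads to be tested. *PYCARD* and *RIPK3* did not. Genes were called at FDR < 0.01 and a fold change above 1.5 with limma's moderated test on log2(CPM + 1), with p-values adjusted over all 17982 genes tested. The pseudocount of 1 makes log2 fold changes of genes below about 1 CPM smaller than the ratios of their CPM. To compare levels of different genes, CPM were divided by the length of the merged exons of all annotated transcripts. Which transcripts were expressed was not measured, so the order of genes is approximate. On this scale, *GSDMD* and *GSDME* were the highest of the 10 genes in unstimulated siNC cells. They were at 6.39 ± 0.475 and 6.23 ± 0.140 CPM per kb (mean ± SD, n = 2 libraries). Their difference was within the spread of *GSDMD*. *CASP4* followed at 4.14 ± 0.0467 CPM per kb, and *MLKL*, *NEK7* and *CASP1* lay between 0.766 and 1.93 CPM per kb. *NLRP3* was at 0.0524 and *AIM2* at 0.00578 CPM per kb. After IFNγ in siNC cells, *CASP4* and *GSDMD* both reached 12.2 to 12.3 CPM per kb, and *CASP1*, at 6.22 CPM per kb, was close to *GSDME* at 6.42.

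**Figure D1:**
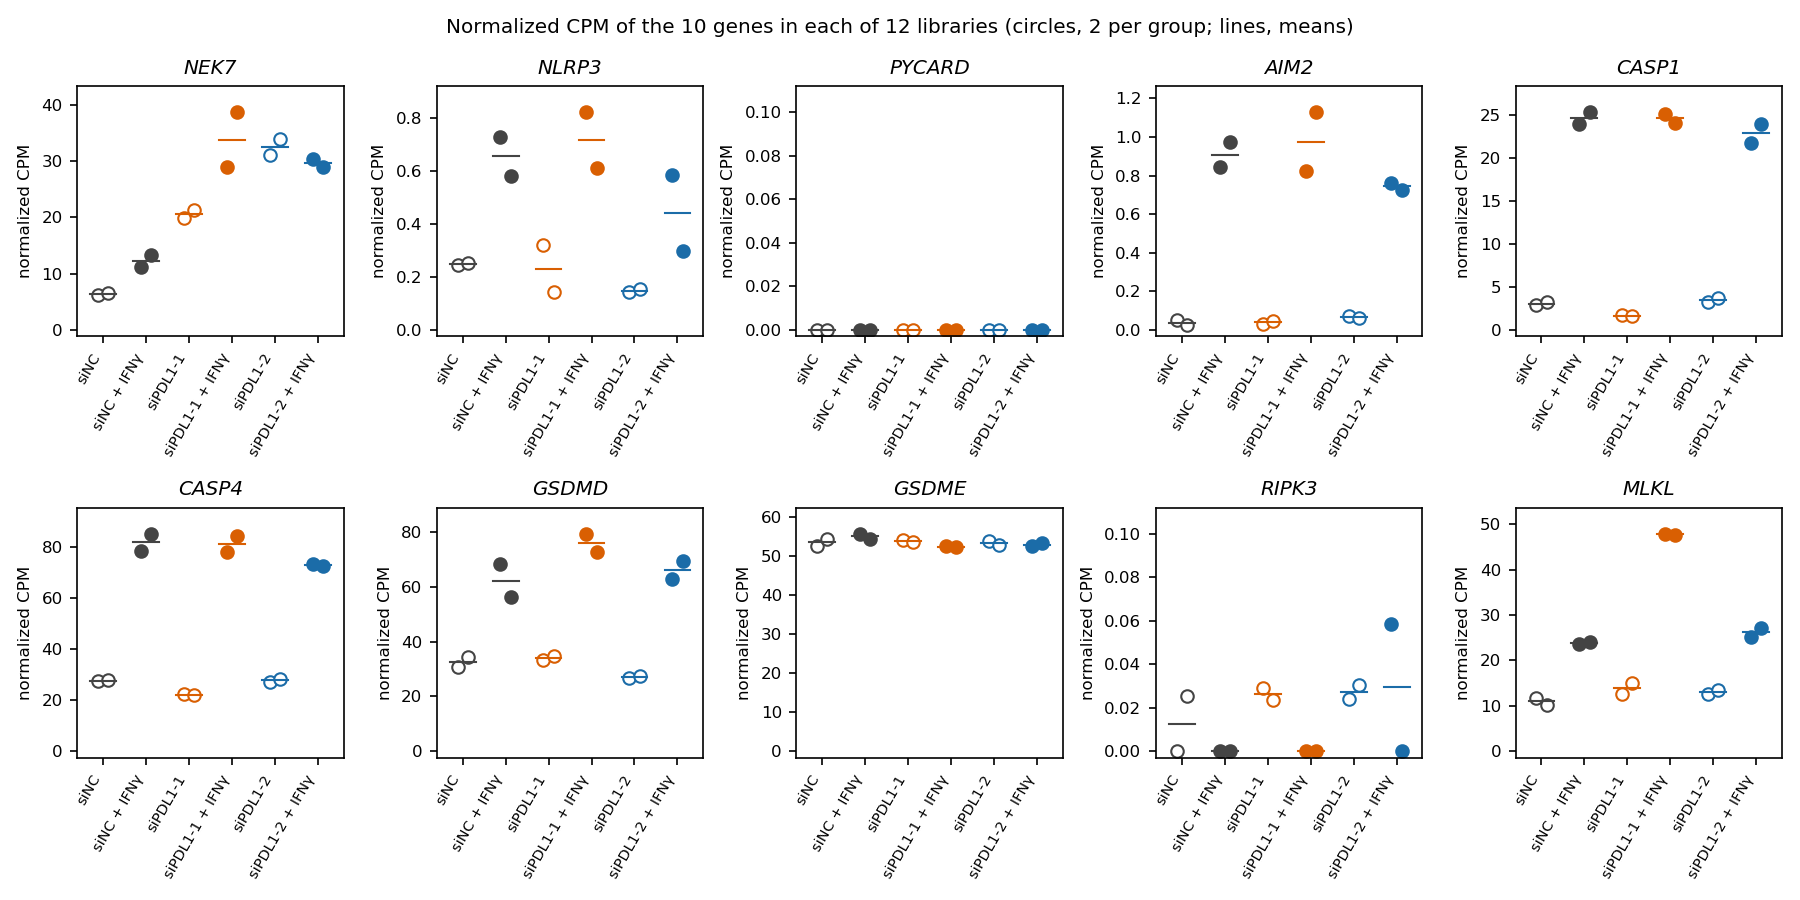
Normalized CPM (linear axis from 0) of each of the 10 genes in the 12 libraries, by group; open circles are unstimulated and filled circles IFNγ-stimulated libraries, and short lines are means of 2 libraries. *NEK7* is higher in all libraries with either siRNA against *PD-L1* (19.9 to 38.8 CPM) than in siNC (6.12 to 13.3 CPM), *GSDME* stays between 52.3 and 55.8 CPM, and *PYCARD* has no reads.

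Promoter windows of RefSeq (GRCh38.p14), from 250 bases before to 50 bases after the start of a gene, were given for 6 of the 10 genes. They were searched on both strands for the core of the interferon-stimulated response element bound by IRF factors (GAAA, any 2 bases, GAAA). Windows are shown for *AIM2*, *CASP4* and *MLKL*, which rose with IFNγ whichever siRNA was present, and for *GSDME*, which was not called. Capitals mark a motif match and all other bases are in lower case, 5′ to 3′ on the strand of the gene.
AIM2, chr1:159076717-159077016, minus strand: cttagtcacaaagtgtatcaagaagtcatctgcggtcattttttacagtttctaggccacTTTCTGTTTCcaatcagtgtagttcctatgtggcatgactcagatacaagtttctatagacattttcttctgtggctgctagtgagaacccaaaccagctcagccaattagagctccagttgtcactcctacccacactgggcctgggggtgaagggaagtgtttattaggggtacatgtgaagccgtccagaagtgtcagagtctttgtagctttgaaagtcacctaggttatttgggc
CASP4, chr11:104968525-104968824, minus strand: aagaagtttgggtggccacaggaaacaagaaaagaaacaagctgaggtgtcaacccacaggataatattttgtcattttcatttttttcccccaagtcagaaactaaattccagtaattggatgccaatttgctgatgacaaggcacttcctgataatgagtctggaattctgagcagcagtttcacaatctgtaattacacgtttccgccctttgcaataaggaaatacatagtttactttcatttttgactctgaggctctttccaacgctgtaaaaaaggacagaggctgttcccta
MLKL, chr16:74700813-74701112, minus strand: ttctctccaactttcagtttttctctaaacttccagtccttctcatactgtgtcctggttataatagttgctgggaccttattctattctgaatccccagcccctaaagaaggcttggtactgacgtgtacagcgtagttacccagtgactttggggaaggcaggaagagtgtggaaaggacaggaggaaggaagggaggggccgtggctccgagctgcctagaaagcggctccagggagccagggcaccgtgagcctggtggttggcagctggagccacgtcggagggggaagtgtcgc
GSDME, chr7:24757415-24757714, minus strand: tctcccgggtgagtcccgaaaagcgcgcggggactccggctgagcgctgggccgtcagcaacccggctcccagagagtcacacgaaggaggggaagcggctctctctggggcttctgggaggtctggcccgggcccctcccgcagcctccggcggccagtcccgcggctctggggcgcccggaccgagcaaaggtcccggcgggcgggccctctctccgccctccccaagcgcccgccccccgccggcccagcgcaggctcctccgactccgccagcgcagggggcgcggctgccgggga
The single match lay in *AIM2*, whose response element core, on the opposite strand, began 190 bases before the RefSeq start. That start lies inside the longer span given for *AIM2* below. The motif did not occur in the windows of *NLRP3*, *PYCARD*, *CASP4*, *GSDME* or *MLKL*. Among 27305 windows of the same length, 3.65% held the response element core. The windows also differed in base composition, with 35 CG dinucleotides in *GSDME*, 9 in *MLKL*, 3 in *CASP4* and 2 in *AIM2*. A match is a run of letters and was not tested as a binding site.

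*NEK7* (ENSG00000151414, chromosome 1 from 198156994 to 198322420, plus strand, GRCh38) was lowest in unstimulated siNC cells, at 6.12 and 6.50 CPM. With siPDL1-1 it was 19.9 and 21.4 CPM, and with siPDL1-2 it was 31.1 and 34.0 CPM. These groups did not overlap, and the means were 3.28 and 5.16 times that of siNC. After IFNγ, siNC cells had 11.1 and 13.3 CPM. The values with siPDL1-1 were 29.0 and 38.8 CPM and those with siPDL1-2 were 30.4 and 29.0 CPM, 2.77 and 2.43 times the mean of siNC. On the log2(CPM + 1) scale, the differences from siNC were 1.57 with siPDL1-1 and 2.20 with siPDL1-2 in unstimulated cells, and 1.39 and 1.22 after IFNγ. These values chose the gene and support nothing further, and both siRNAs were compared with the same siNC libraries.

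By mean level, *NEK7* rose from siNC through siNC with IFNγ, siPDL1-1, siPDL1-2 with IFNγ and siPDL1-2 to siPDL1-1 with IFNγ. The lowest 3 groups did not overlap with their neighbours in this order. Among the highest 3, the siPDL1-1 libraries with IFNγ overlapped both siPDL1-2 groups, which did not overlap each other. Between the siRNAs, the difference of siPDL1-1 from siPDL1-2 was -0.63 in unstimulated cells and 0.17 after IFNγ on the log2 scale. The latter was -0.03 without replicate 2 of siPDL1-1 with IFNγ.

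The response of *NEK7* to IFNγ was not used to choose it, but it was measured in the same libraries. Its FDR values are therefore not independent of the choice. IFNγ raised *NEK7* 1.93-fold in siNC cells, by 0.85 on the log2 scale (limma, FDR = 5.23e-05, standard error 0.114). The increase with siPDL1-1 was 0.67 on the log2 scale (standard error 0.114, FDR = 4.48e-04). Without replicate 2 of siPDL1-1 with IFNγ, this fold change was 0.47 (FDR = 0.0023) and the call was lost. With siPDL1-2, both stimulated libraries lay below both unstimulated ones, and the log2 fold change of -0.13 was not called (95% interval -0.38 to 0.12, FDR = 0.439 from limma). The siPDL1-2 effect was thus 0.98 smaller on the log2 scale with IFNγ than without, a difference that was not tested.

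The genes whose level over the 12 libraries was most like that of *NEK7* were *TMEM30A* (Pearson's r = 0.995 on log2(CPM + 1)), *RDX* (r = 0.995), *FNDC3A* (r = 0.988), *POGLUT3* (r = 0.988) and *MAN2A1* (r = 0.987). *TMEM30A* encodes a subunit of phospholipid flippases and *RDX* encodes radixin, which links actin to the membrane. They were taken from 14277 genes that averaged 1 CPM or more, of which 187 had r above 0.9. The libraries share groups and normalization, so these correlations only describe patterns over 6 groups. *TMEM30A* averaged 93.7 CPM in unstimulated siNC cells, 202 with siPDL1-1 and 266 with siPDL1-2, and 148, 272 and 240 CPM after IFNγ, which is the order seen for *NEK7*. No gene of the table overlapped *NEK7*. The nearest neighbours that averaged 1 CPM or more were *LHX9*, 221516 bases before it, and *ZNF281*, 2082520 bases after it. Neither was called for an siRNA against siNC, with log2 fold changes from -0.47 to 0.42. *LHX9*, a homeobox gene, rose with IFNγ in siNC cells (0.71, FDR = 0.00225 from limma).

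The sensors were scarce. *NLRP3* (ENSG00000162711, chromosome 1 from 247416156 to 247449108, plus strand) had 171 reads over all libraries. In siNC cells it was 0.245 and 0.253 CPM without and 0.730 and 0.581 CPM with IFNγ. With siPDL1-1 it was 0.319 and 0.141 CPM, and 0.823 and 0.612 CPM after IFNγ. Stimulated libraries were above unstimulated ones in each case. With siPDL1-2, the values were 0.144 and 0.153 CPM without and 0.586 and 0.297 CPM with IFNγ. With the reads of each group pooled, the ratios of CPM were 2.64 (95% exact binomial interval of the recovered reads 1.49 to 4.97), 3.37 (1.88 to 6.31) and 2.72 (1.23 to 6.33). These intervals cover counting error only, since reads copied by PCR are not independent molecules. The log2 fold changes of 0.41, 0.48 and 0.32 did not pass both thresholds (FDR = 0.0207, 0.00865 and 0.0737 from limma). With siPDL1-1, edgeR, which used the recovered reads and no pseudocount of 1, called *NLRP3* (log2 fold change 1.71, FDR = 0.00951). *NLRP3* passed the filter on low reads through its stimulated libraries, so it could enter these tests only if it was high there.

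*AIM2* (ENSG00000163568, chromosome 1 from 159062484 to 159147096, minus strand), the sensor of cytosolic DNA whose promoter held the motif match, had 1 to 3 reads in each unstimulated library. After IFNγ, siNC libraries had 45 and 47 reads (0.843 and 0.975 CPM). Those with siPDL1-1 had 29 and 24 reads (0.823 and 1.13 CPM) and those with siPDL1-2 had 13 and 22 reads (0.762 and 0.727 CPM). All 6 stimulated libraries were above all 6 unstimulated ones. Ratios of CPM, from pooled reads, were 27.1 with siNC (95% interval 7.30 to 227), 24.1 with siPDL1-1 (7.80 to 120) and 11.0 with siPDL1-2 (4.30 to 36.0). *AIM2* was called in all 3 (log2 fold changes 0.88, 0.92 and 0.71, FDR from 1.23e-05 to 2.34e-04 from limma). It passed the filter on low reads through its stimulated libraries, so it could enter the test only if it was high there. After IFNγ the counting intervals of the ratios to siNC included 1, with 1.04 (0.724 to 1.47) for siPDL1-1 and 0.817 (0.537 to 1.22) for siPDL1-2.

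*PYCARD* (ENSG00000103490, chromosome 16 from 31201486 to 31203450, minus strand), which encodes the adaptor ASC, had 0 reads in all 12 libraries. A count of 0 allows up to 3 reads, which is 0.0562 to 0.176 CPM depending on the library. Its antisense partner *PYCARD-AS1*, which overlaps it on the opposite strand and was not separated by strand in the counting, averaged 0.0147 CPM.

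Among the caspases, *CASP1* (ENSG00000137752, chromosome 11 from 105025443 to 105035250, minus strand) had the largest response to IFNγ of the 8 tested genes on the log2(CPM + 1) scale with each of the 3 siRNAs, whereas the ratio of CPM was larger for *AIM2*. In siNC cells it was 2.89 and 3.19 CPM without and 24.0 and 25.4 CPM with IFNγ, a ratio of 8.12 (log2 fold change 2.67, standard error 0.0913, FDR = 3.78e-12 by limma). Cells with siPDL1-1 had 1.71 and 1.55 CPM, and 25.2 and 24.1 CPM after IFNγ, a ratio of 15.1 (log2 fold change 3.28). The stimulated level was thus alike and the unstimulated level lower. With siPDL1-2, *CASP1* went from 3.26 and 3.66 CPM to 21.8 and 24.0 CPM, a ratio of 6.61 (log2 fold change 2.42).

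In unstimulated cells, siPDL1-1 reduced *CASP1* below siNC (log2 fold change -0.62, standard error 0.0913, FDR = 1.23e-04 from limma) and below siPDL1-2 (-0.76, FDR = 2.25e-05). The first call was lost without replicate 2 of siNC (-0.56, FDR = 0.00248) or replicate 2 of siPDL1-1 (-0.57, FDR = 0.00315), where the fold change fell short of 1.5. After IFNγ the difference of siPDL1-1 from siNC was -0.0011 (95% interval -0.20 to 0.19). The change of the siPDL1-1 effect with IFNγ, 0.62 on the log2 scale, had FDR = 0.0146 with limma, and over the alternatives the FDR ran from 0.00222 to 0.0851. The reads of *CASP1* are uncertain to the extent that *CARD16* and *CARD17* are near-identical to its 5′ part and reads with several matches were kept in the mapping. *CARD17* had 1 read over all libraries.

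*CASP4* (ENSG00000196954, chromosome 11 from 104942866 to 104969366, minus strand), the caspase that binds cytosolic lipopolysaccharide, was more abundant. It was 27.4 and 27.8 CPM in siNC cells, 22.3 and 22.1 with siPDL1-1 and 27.2 and 28.3 with siPDL1-2. After IFNγ it was 78.4 and 85.4, 78.3 and 84.5, and 73.3 and 72.6 CPM. The ratios were 2.97, 3.66 and 2.63 (log2 fold changes 1.53, 1.83 and 1.36, FDR from 8.51e-13 to 5.65e-11 from limma). As for *CASP1*, both unstimulated siPDL1-1 libraries were the lowest of the 12. This difference from siNC was below the fold threshold (log2 fold change -0.30, 95% interval -0.42 to -0.18, FDR = 0.00103). With siPDL1-2 the differences were 0.0088 (95% interval -0.11 to 0.13) without and -0.16 (-0.29 to -0.042) with IFNγ.

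*GSDMD* (ENSG00000104518, chromosome 8 from 143553207 to 143563062, plus strand), which encodes the pore-forming substrate of both caspases, was 30.8 and 34.2 CPM in siNC cells and 68.1 and 56.4 CPM after IFNγ. With siPDL1-1 it was 33.1 and 34.9, and 79.4 and 72.8 CPM. With siPDL1-2 it was 26.7 and 27.5, and 62.9 and 69.2 CPM. Stimulated and unstimulated libraries did not overlap, and the ratios of 1.92, 2.24 and 2.44 were all called (log2 fold changes 0.91, 1.14 and 1.26, FDR from 4.10e-08 to 9.99e-07 from limma). No siRNA effect on *GSDMD* passed both thresholds. The nearest were 0.29 with siPDL1-1 after IFNγ (95% interval 0.11 to 0.47, FDR = 0.0146) and -0.25 with siPDL1-2 in unstimulated cells (-0.43 to -0.074, FDR = 0.0261).

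*GSDME* (ENSG00000105928, chromosome 7 from 24698355 to 24757940, minus strand), a gasdermin cleaved by caspase-3, varied least. It had 52.3 CPM in the lowest, 53.5 in the median and 55.8 in the highest library. The effect of IFNγ was 0.041 with siNC (95% interval -0.059 to 0.14), -0.040 with siPDL1-1 (-0.14 to 0.060) and -0.013 with siPDL1-2 (-0.11 to 0.087) on the log2 scale, and neither siRNA was called in either state. A change of 1.5-fold, 0.585 on this scale, lay outside all of these intervals.

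In the necroptosis pair, *RIPK3* (ENSG00000129465, chromosome 14 from 24336025 to 24340022, minus strand) had 6 reads in all, 1 in each of 6 libraries, and was not tested. *MLKL* (ENSG00000168404, chromosome 16 from 74671855 to 74700960, minus strand), its substrate, was 11.8 and 10.3 CPM in siNC cells, 12.5 and 15.1 with siPDL1-1 and 12.5 and 13.4 with siPDL1-2. After IFNγ, it was 23.6 and 24.1 CPM in siNC cells. With siPDL1-1 it reached 47.9 and 47.6 CPM, above every other library, and with siPDL1-2 it was 25.2 and 27.2 CPM. IFNγ raised *MLKL* 2.16-fold with siNC, 3.45-fold with siPDL1-1 and 2.02-fold with siPDL1-2 (log2 fold changes 1.05, 1.72 and 0.96, FDR from 4.50e-10 to 7.75e-07 from limma).

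After IFNγ, *MLKL* was 2.00 times higher with siPDL1-1 than with siNC (log2 fold change 0.97, standard error 0.0873, FDR = 6.71e-07 from limma) and also higher than with siPDL1-2 (0.84, FDR = 6.95e-06). With siPDL1-2 the difference from siNC was 0.13 (95% interval -0.056 to 0.32). Without IFNγ, *MLKL* differed from siNC by 0.30 for siPDL1-1 (FDR = 0.0170), and the value for siPDL1-2 was 0.22 (FDR = 0.0561). The siPDL1-1 effect on *MLKL* was larger with IFNγ by 0.67 (standard error 0.123, FDR = 0.00532). Over the alternatives this FDR ran from 7.57e-04 to 0.0430, and the call was lost when any of 6 single libraries was left out, without a filter on low reads and in a fit of only the 4 groups compared. *MLKL* moved beside the summed level of 10 type I interferon-response genes in these libraries. This sum was 3483 to 3528 CPM with siPDL1-1 and IFNγ, 332 to 353 with siNC and IFNγ and 356 to 376 with siPDL1-2 and IFNγ. *IFIT1*, *IFIT2*, *IFIT3* and *ISG15* made up much of it, with highest values of 613 to 721 CPM. *MX1*, also in the sum, stayed at 3.02 to 5.43 CPM over the 12 libraries. In unstimulated cells the sums were 75.4 to 75.5 CPM with siPDL1-1, 37.2 to 37.5 with siNC and 33.2 to 34.5 with siPDL1-2. The part of these genes in the result for *MLKL* was not tested.

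Taking IFNγ first, the caspases, *GSDMD*, *MLKL* and *AIM2* were higher with each siRNA, and *GSDME* and *NLRP3* were not called. In siNC cells 6 of the 8 tested genes were called higher, against 6.67% of all genes tested. With siPDL1-1, 6 of 8 were called higher against 5.58%, and with siPDL1-2, 5 of 8 against 3.62%, *NEK7* being the gene not called. The medians over the 8 genes were 0.90, 1.03 and 0.84 on the log2 scale, beside 0.0012, -0.016 and -0.015 over all genes tested. These are descriptions, because the genes were chosen with the results known and 2 were not tested. *AIM2* and *NLRP3* also passed the filter through their stimulated libraries. With DESeq2, which gave no adjusted p for *AIM2* with siPDL1-1 and siPDL1-2, 6, 5 and 4 were called.

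**Figure D2:**
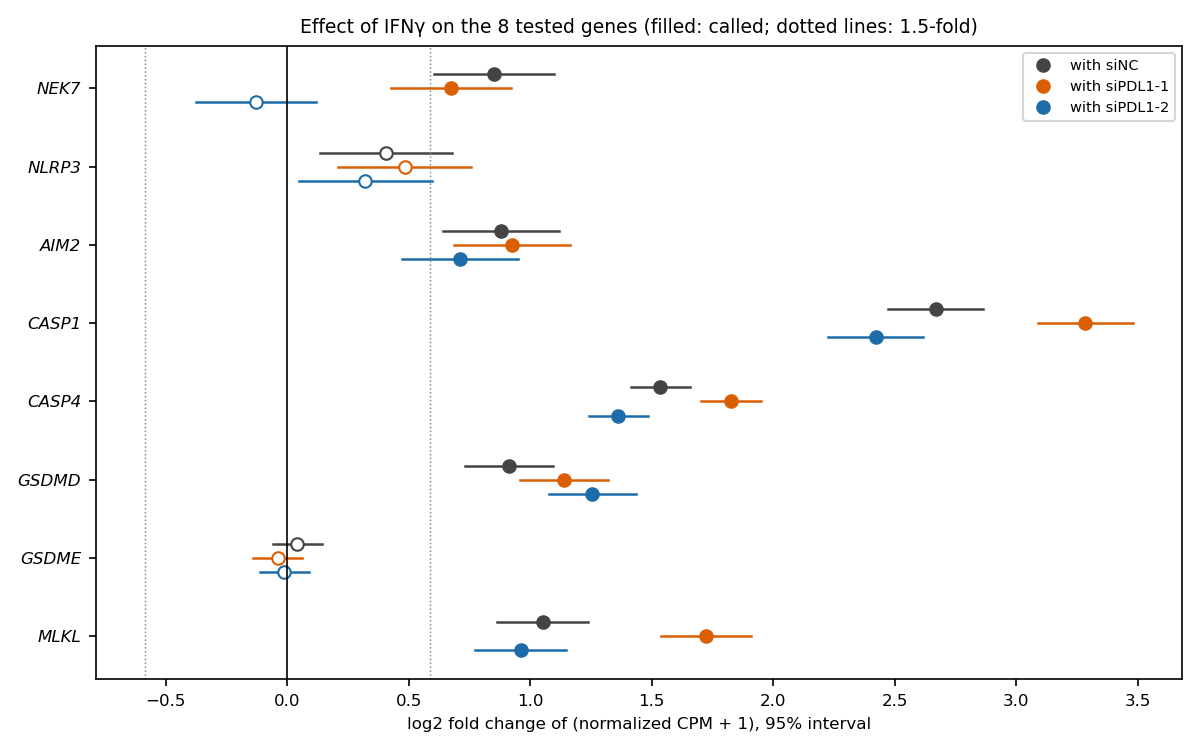
Log2 fold change of CPM + 1 with IFNγ for the 8 tested genes in cells with siNC, siPDL1-1 or siPDL1-2; bars are 95% intervals from limma, filled points were called and dotted lines mark a fold change of 1.5. *CASP1* has the largest values on this scale (2.42 to 3.28), *GSDME* stays near 0, and *NEK7* falls from 0.85 with siNC to -0.13 with siPDL1-2.

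Fewer of these genes were called for the siRNAs than for IFNγ, and those called against siNC were with siPDL1-1. The mean of *CD274* was 56.8% of siNC with siPDL1-1 and 73.8% with siPDL1-2 in unstimulated cells, and 86.7% and 49.3% after IFNγ. Whether the calls depend on *CD274* was not tested, and they are given as differences between transfected groups. Besides *NEK7*, 7 genes were tested. In unstimulated cells, 1 of them was called with siPDL1-1 (*CASP1*, lower), where 4.00% of all genes were called. After IFNγ, 1 was called (*MLKL*, higher), beside 5.47% of all genes. With siPDL1-2, limma called 0 of 7 in unstimulated cells, where 6.17% of all genes were called, and 0 of 7 after IFNγ, beside 3.13%. At an unadjusted p under 0.05 there were 2 (*GSDMD*, *MLKL*) and 1 (*CASP4*), and edgeR and DESeq2 also called 0. For *CASP1*, *CASP4*, *GSDMD*, *GSDME* and *MLKL*, the 95% intervals for siPDL1-2 lay within a fold change of 1.5 in both states. *NLRP3* and *AIM2* were too low for such a limit, since the pseudocount compresses their values. The counting interval of the *NLRP3* ratio to siNC was 0.245 to 1.37 in unstimulated cells and 0.345 to 1.03 after IFNγ, and that of *AIM2* in unstimulated cells was 0.329 to 21.1. Both siRNAs were set against the same siNC libraries.

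Between the siRNAs, *CASP1* differed in unstimulated cells and *MLKL* after IFNγ, as given above. This was 1 of 7 genes in each state, beside 4.35% and 2.23% of all genes. *CASP4* (-0.31, FDR = 7.21e-04) and *GSDMD* (0.32, FDR = 0.00867) also had an FDR < 0.01 in unstimulated cells but were below the fold threshold. The siPDL1-1 effect changed with IFNγ for 1 of 7 genes (*MLKL*), beside 0.968% of all genes. For siPDL1-2, limma, edgeR and DESeq2 each called 0 of 7, with 2 (*CASP4*, *GSDMD*) at an unadjusted p under 0.05, beside 7.62% of all genes.

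**Figure D3:**
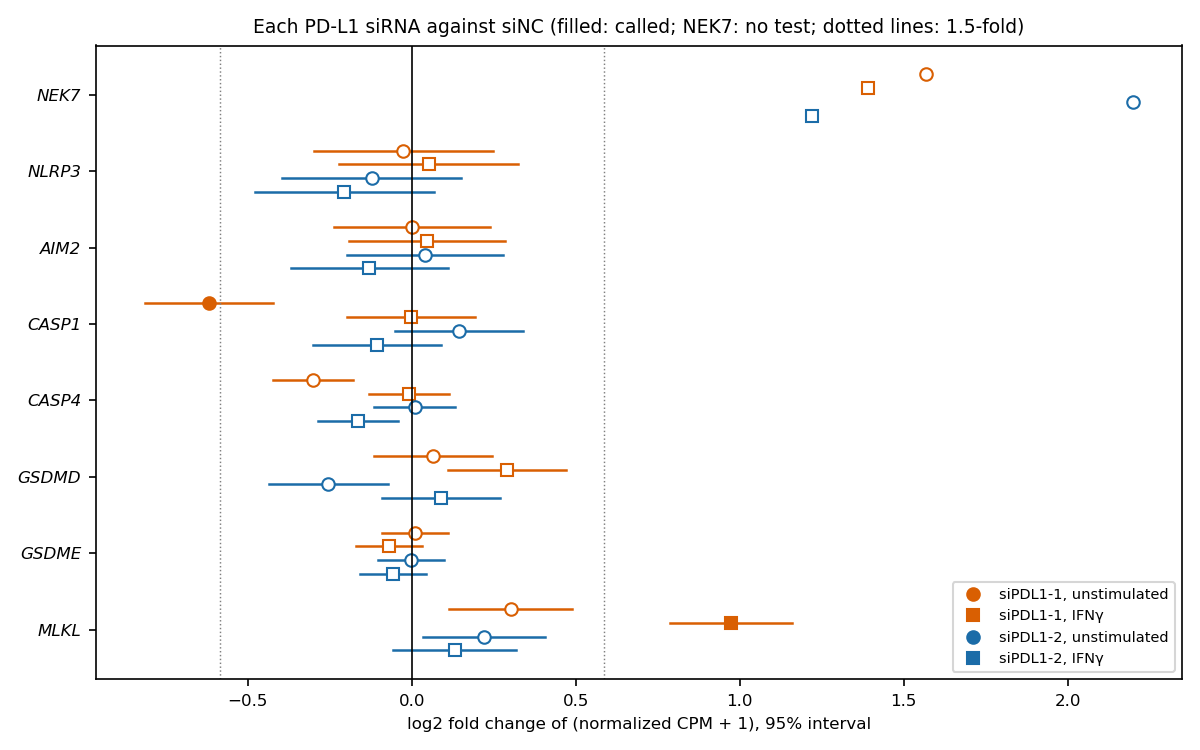
Log2 fold change of CPM + 1 of each siRNA against *PD-L1* relative to siNC, for unstimulated (circles) and IFNγ-stimulated (squares) cells; bars are 95% intervals from limma, filled points were called, and *NEK7*, which was picked on these values, has no interval and no test. Apart from *NEK7* (1.22 to 2.20), *CASP1* in unstimulated cells (-0.62) and *MLKL* after IFNγ (0.97), both with siPDL1-1, are past the dotted lines of a 1.5-fold change.

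The same pathways hold other genes, which were listed by role. Beside the counts with IFNγ in these lists, 6.67%, 5.58% and 3.62% of all genes tested were called higher in siNC, siPDL1-1 and siPDL1-2 cells. The lists include the 10 genes above, so the counts partly repeat calls already given, with the same limits. Of 14 inflammasome sensors 10 were tested, and 2 were called higher with IFNγ under each siRNA, *AIM2* and *IFI16*. *IFI16*, which encodes a nuclear DNA sensor, went from 139 and 138 CPM to 399 and 417 CPM in siNC cells (log2 fold change 1.55, FDR = 7.66e-14 from limma). It reached 626 and 659 CPM with siPDL1-1 and 363 and 373 CPM with siPDL1-2. After IFNγ it was higher with siPDL1-1 than with siNC (0.65, FDR = 9.82e-09), as *MLKL* was.

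Of 13 adaptors and regulators 7 were tested, *NEK7* among them, and 5, 4 and 2 were called higher with IFNγ in siNC, siPDL1-1 and siPDL1-2 cells. *CARD16*, a decoy that binds caspase-1, rose from 1.03 and 0.911 to 4.91 and 5.23 CPM in siNC cells (1.62, FDR = 7.48e-08 from limma), with the same uncertainty over shared reads as *CASP1*. *P2RX7*, the ATP-gated channel that triggers NLRP3, rose by 0.93 with siNC, 1.11 with siPDL1-1 and 0.66 with siPDL1-2. *TXNIP*, a thioredoxin inhibitor that has been linked to NLRP3, resembled *NEK7* only in that IFNγ did not raise it with siPDL1-2. Its log2 fold changes with IFNγ were 0.69 with siNC and 1.03 with siPDL1-1, and both were called. With siPDL1-2 it fell from 1151 and 1134 to 962 and 976 CPM (-0.24, FDR = 5.36e-05 from limma), below the fold threshold. After IFNγ it was below siNC with siPDL1-2 (-0.66, FDR = 4.25e-09), whereas *NEK7* was above siNC.

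Of 11 inflammatory caspases and cytokine genes 7 were tested, and 3 were called higher with IFNγ under each siRNA, *CASP1*, *CASP4* and *IL18BP*. *IL18BP*, which encodes the secreted inhibitor of IL-18, had log2 fold changes of 4.22, 4.17 and 4.23 and reached 140 to 161 CPM. Of the cytokine genes themselves, *IL18*, at 15.3 to 22.5 CPM, was tested and not called in any of these comparisons. *IL1B*, *IL1A* and *IL33* were not called either, but reached at most 0.407, 0.455 and 0.427 CPM. At such levels a 1.5-fold change on log2(CPM + 1) could not be reached, so their lack of calls is uninformative. Of 12 gasdermins and genes of pore formation or rupture 8 were tested. With IFNγ, 2, 2 and 3 were called higher. *CASP8* was called under each siRNA (0.65, 0.96 and 0.73), and *GSDMB* with siPDL1-2 (0.59, FDR = 9.32e-05 from limma). *PJVK* was called with siPDL1-2 in unstimulated cells (0.66, FDR = 0.00991), from 0.881 and 0.658 to 1.68 and 1.89 CPM, but not by DESeq2.

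Of 15 necroptosis genes 14 were tested, and 3, 4 and 4 were called higher with IFNγ. *CYLD*, a deubiquitinase that acts on RIPK1 complexes, rose under each siRNA (1.04, 1.26 and 0.69). *ZBP1*, the sensor of Z-form nucleic acids that engages RIPK3, had 0 reads in both unstimulated siNC libraries. It was at least 8.85-fold higher after IFNγ, with 3 reads over the group as the floor, and its log2 fold change was below the fold threshold. With siPDL1-1 and IFNγ, *ZBP1* was 5.19 and 4.66 CPM, against 0.506 and 0.374 CPM with siNC and IFNγ, a ratio of 11.3 (95% interval 8.20 to 15.8, FDR = 3.20e-09 from limma). Like *AIM2*, it passed the filter on low reads through stimulated libraries. *MLKL*, *IFI16* and *ZBP1* were the genes of these lists called higher with siPDL1-1 after IFNγ. The lists held 60 genes with enough reads, *NEK7* among them. Of all genes tested, 5.47% were called in either direction in this comparison and 1.75% were called lower. An excess among the listed genes was not tested. *TRADD*, a death-receptor adaptor, rose with IFNγ in siPDL1-2 cells (0.70, FDR = 5.16e-04).

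All 11 kinases of the NEK family were tested with IFNγ, and *NEK7* was called higher with siNC and with siPDL1-1. With siPDL1-2, limma called 0 of 11, as did edgeR and DESeq2, with 1 (*NEK2*) at an unadjusted p under 0.05. Of the others, *NEK8*, a ciliary kinase, was called higher with siPDL1-1 in unstimulated cells (0.68, FDR = 8.21e-04 from limma). *NEK2*, a centrosomal kinase that peaks at mitosis, was lower after IFNγ with siPDL1-1 (-0.95, FDR = 1.70e-08) and with siPDL1-2 (-0.64, FDR = 3.13e-06). *NEK6*, the closest relative of *NEK7*, and *NEK9*, the kinase that activates both, had log2 fold changes against siNC from -0.11 to 0.18 over the 4 siRNA comparisons and were not called. Of 7 partners of NEK7 in mitosis, 4 were called lower with siPDL1-1 after IFNγ, where 1.75% of all genes were called lower. They were *KIF14* (-0.91), *PLK1* (-0.81), *TPX2* (-0.64) and *KIF11* (-0.63), with FDR from 4.48e-09 to 1.21e-07 from limma. With siPDL1-2 after IFNγ they had, in this order, -0.50, -0.38, -0.36 and -0.35 (FDR from 5.52e-06 to 1.29e-04 from limma), below the fold threshold. *PLK1* was also lower with siPDL1-1 in unstimulated cells (-0.62, FDR = 8.26e-07). In unstimulated siPDL1-2 cells, *PLK1* (-0.52) and *TPX2* (-0.42) were below the fold threshold, and *KIF14* (-0.030) and *KIF11* (0.038) were near siNC. The study reports mitotic spindle genes among the sets lowered by silencing *PD-L1*.

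**Figure D4:**
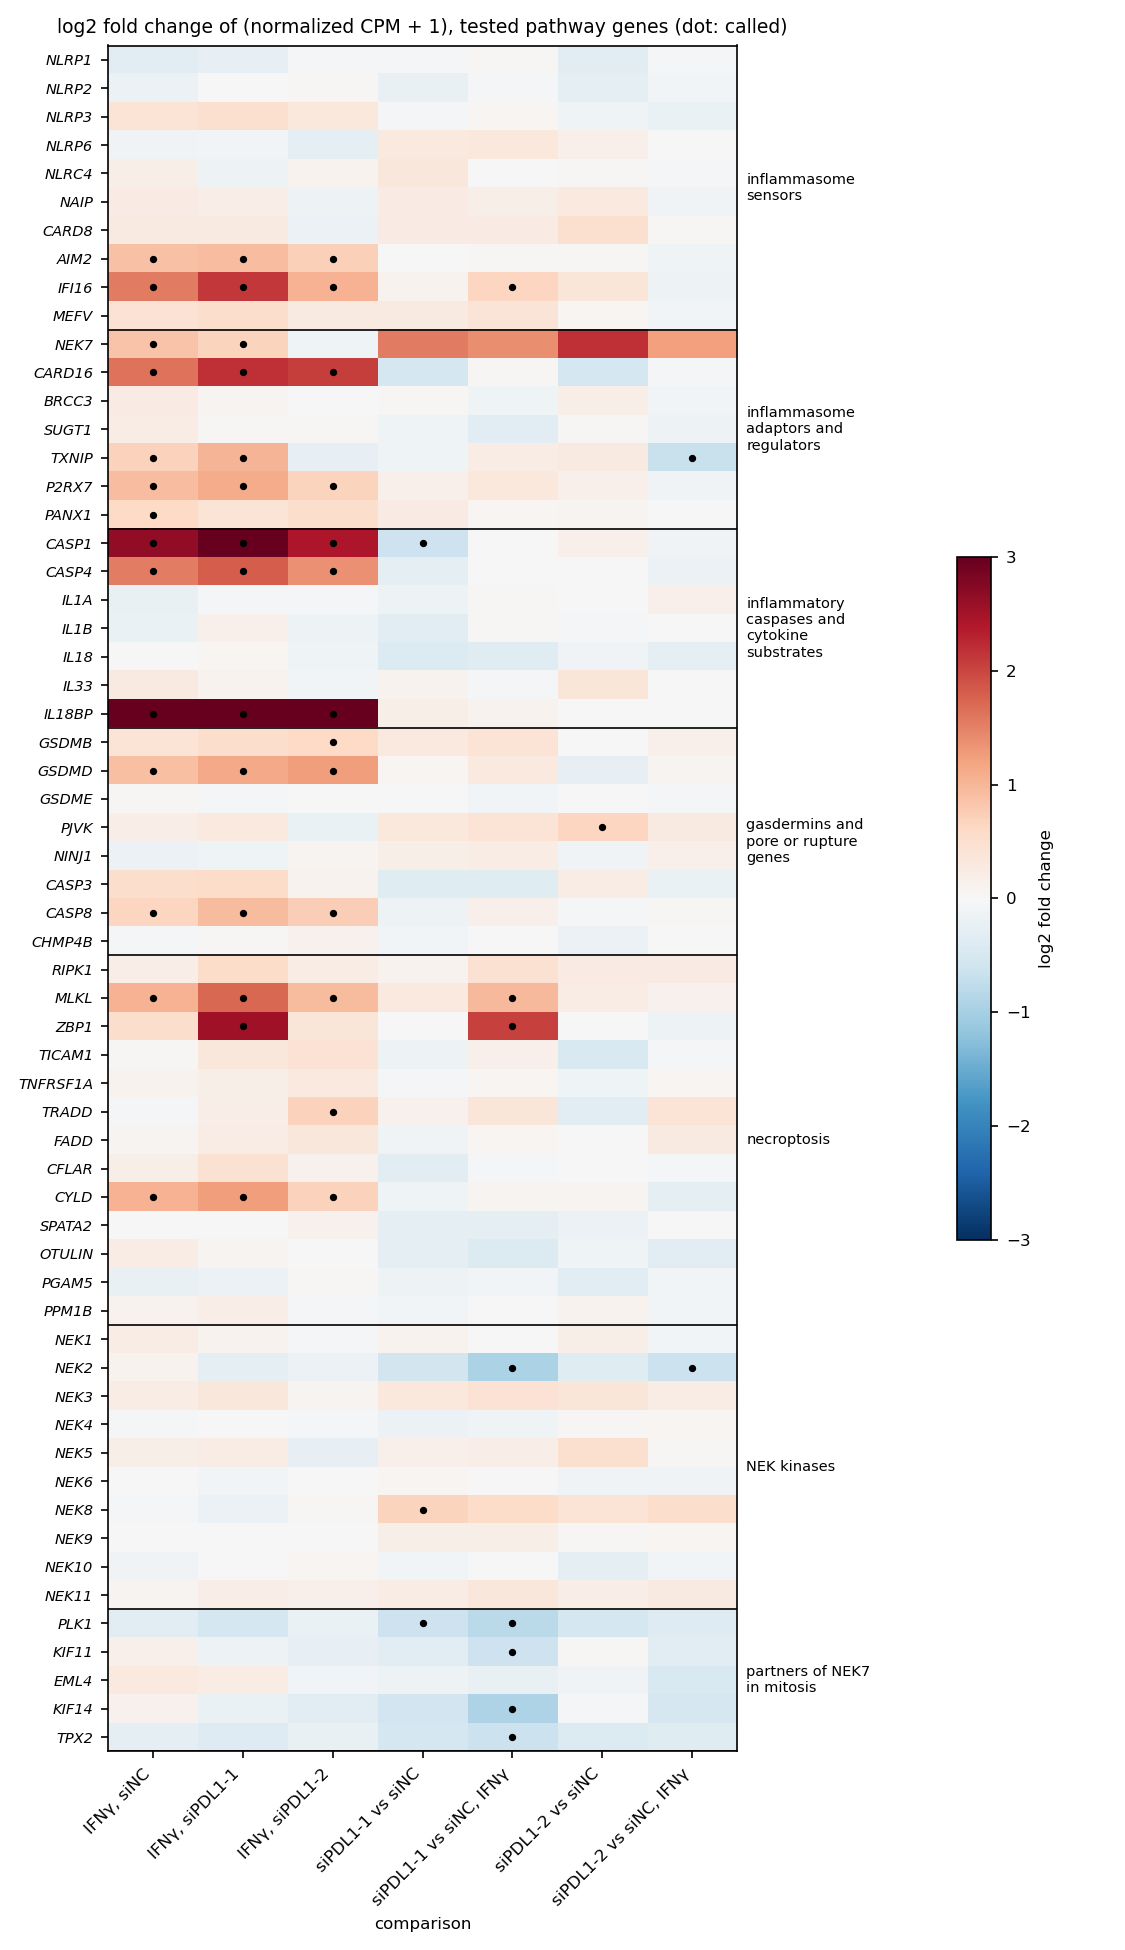
Log2 fold change of CPM + 1 (colour, with a scale that ends at -3 and 3) of 60 tested genes of the inflammasome, gasdermin, necroptosis, NEK and mitosis lists in the IFNγ and siRNA comparisons; dots mark called genes, and *NEK7* was not tested in the siRNA comparisons. Calls with IFNγ are all increases, whereas with siPDL1-1 after IFNγ *IFI16*, *MLKL* and *ZBP1* are higher and *NEK2* and 4 mitosis genes lower.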

How the data were processed

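The deposited table held normalized CPM for 12 U251 libraries and 45416 genes. As deposited, these signal values had been made by the authors, who trimmed reads, mapped them to GRCh38 (Ensembl) in CLC Genomics Workbench 22.0.2, counted them on both strands with broken pairs ignored, and scaled them further (factors 0.959 to 1.036). Because of this, genes overlapping on opposite strands were not separated, and reads with several matches could be assigned among near-identical genes. In each library, 100% of values were whole multiples of 1 read (within 0.01 read), so reads were recovered. Depth was 17101069 to 55657393 reads.

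Log2(CPM + 1) of the 6 groups was fitted together with limma 3.58.1 (trend and robust) for 17982 genes kept by filterByExpr of edgeR 4.0.16 on recovered reads (minimum count 10, minimum total 15). P-values were adjusted by Benjamini-Hochberg across the tested genes, and a call needed FDR < 0.01 with fold change > 1.5. The 11 comparisons were IFNγ under each siRNA, each siRNA against siNC and against the other in each state, and the change of each siRNA effect with IFNγ. *NEK7* was left out of siRNA tests. Alternatives were edgeR's quasi-likelihood test, DESeq2 1.42.0, its size factors, a pseudocount of 0.1, no filter, only the groups compared, the replicate number as a covariate, FDR < 0.05 without a fold threshold, and leaving out each library. On simulated data for IFNγ in siNC cells, 199 of 200 genes changed by 1.5 (log2) were recovered among 17982 genes, with 1 false call. The changed genes were drawn from well-expressed genes only, so low genes such as *NLRP3* and *AIM2* and smaller changes were not covered. Replicates were checked for duplication, and none agreed within sampling noise.

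The 10 genes and the gene lists were chosen with earlier results of these data known. From each list, the called genes with the largest changes are named, up to 4 per comparison, together with the 5 genes most like *NEK7*. The sample labels and the study's methods name different extraction kits and sequencing instruments. Scripts ran in R 4.3.3 and in Python 3.11.15 (with pandas 2.3.3, scipy 1.17.1, matplotlib 3.10.9 and numpy 2.4.6). A second promoter motif that was searched is not reported here. Exon lengths are those of the merged exons of all GENCODE transcripts of a gene on GRCh38. Gene coordinates are from the deposited table and promoter windows are from RefSeq.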

Additional observations from a re-analysis of the deposited data

Results flagged for a closer look

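By the interaction term of limma's model, the effect of siPDL1-1 differed between IFNγ-stimulated and unstimulated cells for 2 of the pathway genes. The lists held 60 such genes with enough reads, *NEK7* among them, and 0.968% of all genes tested were called for this term. For *MLKL* the difference was 0.672 on the log2 scale (standard error 0.123, FDR = 0.00532), and for *ZBP1* it was 2.02 (standard error 0.158, FDR = 8.75e-07). *ZBP1* had 0 reads in unstimulated siNC cells and 1 with siPDL1-1, and it passed the filter on low reads through stimulated libraries, so its value largely repeats the difference after IFNγ. The effect of siPDL1-2 differed for *TRADD*, by 0.729 (standard error 0.156, FDR = 0.00415), and for *TXNIP*, by -0.93 (standard error 0.0452, FDR = 5.80e-08). These were 2 of the 60 genes, beside 7.62% of all genes tested, so such calls were not more frequent among the pathway genes. For *NEK7*, IFNγ raised every siNC library above the unstimulated ones, whereas with siPDL1-2 every stimulated library lay below the unstimulated ones. The effects differed by -0.978 on the log2 scale, and this difference was not tested because *NEK7* was picked on its siRNA values.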

How the results depend on the processing

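Of 220 counts of called genes under alternatives, 199 stayed within 1.5 times the reported count. At FDR < 0.05 without a fold threshold, the counts were 3 for siPDL1-1 against siNC in unstimulated cells (*CASP1*, *CASP4*, *MLKL*) and 2 after IFNγ (*GSDMD*, *MLKL*). For siPDL1-2 against siNC they were 1 in unstimulated cells (*GSDMD*) and 1 after IFNγ (*CASP4*), and between the siRNAs in unstimulated cells 3. For the change with IFNγ they were 2 for siPDL1-1 (*CASP1*, *MLKL*) and 1 for siPDL1-2 (*GSDMD*). The change of the siPDL1-1 effect also gave 2 with a pseudocount of 0.1, DESeq2 size factors, edgeR's quasi-likelihood test and DESeq2, and 0 without a filter and with only the groups compared. Leaving out each library gave 0 to 1 calls for that change and 0 to 1 for siPDL1-1 in unstimulated cells. The calls for IFNγ ran from 6 to 6, 5 to 6 and 5 to 5. The call of *MLKL* for that change was lost without either siNC library with IFNγ or without replicate 1 of siNC, siPDL1-1 or siPDL1-1 with IFNγ, or replicate 2 of siPDL1-2 (FDR from 0.0101 to 0.0430). The untested *NEK7* difference between the siRNAs after IFNγ (0.17) was -0.0322 without replicate 2 of siPDL1-1 with IFNγ and 0.375 without replicate 1. The change of its siPDL1-1 effect (-0.18) was 0.0272 without replicate 1 of that group and -0.380 without replicate 2. The causes were not tested. Among tested values 39 changed sign, none of them called. Replicate numbers did not pair the libraries, with correlations of deviations from -0.132 to 0.193, and with a replicate block the counts were 6, 6 and 5 for IFNγ and 1, 0, 1 and 0 for the siRNAs against siNC, as without it. Groups of 2 libraries and the low reads of *NLRP3* and *AIM2* limit precision.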
